A study of Mus musculus with 30 samples.

Results

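The genes described here are the mouse histone genes: those whose GENCODE M21 symbol begins with Hist1h, Hist2h, Hist3h or Hist4h, called Hist genes below, and 7 genes of variant or linker histones, H2afx, H2afy, H2afz, H2afv, H3f3a, H3f3b and H1f0. The rule named 77 of the 55500 genes named in the series, 70 of them Hist genes and 7 of them variant or linker genes. Of the 77, 57 lie on chromosome 13, 11 on chromosome 3 and 5 on chromosome 11, and 3 of the Hist genes are annotated as pseudogenes. By class the Hist genes comprise 6 H1, 20 H2A, 19 H2B, 12 H3 and 13 H4 genes. With a minimum of 10 counts in any library, 74 were described, 62 of them in QuantSeq and 68 in RNA-seq. The 3 left out were Hist2h2bb and Hist2h3c1, at 0 counts in every library, and Hist1h1t, at no more than 2. The lowest of those kept, Hist1h2bm, Hist1h3h and Hist1h3i, reached 28, 32 and 34 counts.

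The cells were CD4 T cells that had been flow sorted out of spleen. The mice were C57BL/6, aged 8 weeks, and each library was built on 10 ng of RNA. Of the 30 libraries, 8 were RNA-seq libraries made with a NEB Next Ultra kit and 22 were made with the Lexogen QuantSeq kit, which primes on poly(A) and reads the 3' end of a transcript. The RNA-seq groups were naive cells of wild type mice, sorted as CD4+CD62L+CD44-CD25- (2 libraries), TH2 cells of IL-4BacTg mice, sorted as CD4+hCD2+ (2), TFH cells of OTII Tg mice, sorted as CD4+CD45.2+CXCR5hi PD1+ (2), and 1 library each of TH2 cells and of CXCR5hi TFH2 cells of IL-4BacTg x OTII Tg mice. In QuantSeq, TH2 cells (CD4+hCD2+, 4 libraries) and TFH2 cells came from IL-4BacTg x OTII Tg mice and TFH cells from OTII Tg mice. TFH and TFH2 cells were CD4+CD45.2+PD1+ and fell into 3 gates of the receptor CXCR5: hi (3 TFH and 2 TFH2 libraries), int (2 and 2) and lo (3 and 2). Bcl6KO cells (CD4+hCD2+, 2 libraries) came from Bcl6f/fCd4cre x OTII Tg mice, in which Cre is driven from Cd4 sequences in the T lineage, and Il4-/- cells, called Il4KO below (CD4+, 2 libraries), from Il4-/- x OTII Tg mice. OTII Tg mice carry a transgenic T cell receptor, so every QuantSeq group shared that transgene, and in RNA-seq the genotype differed together with the cell type. In QuantSeq too the genotype differed between TH2, TFH, Bcl6KO and Il4KO cells. The sort gates of TFH and Il4KO cells also differed from that of TH2 cells. Against TH2 cells, genotype and, where it differed, gate cannot be told apart from cell type in these groups. For Bcl6KO the labels give the hCD2+ gate but no IL-4BacTg allele. They do not say whether libraries of a group came from separate mice, so a p-value here reflects how far these libraries vary, and that variation may be technical alone.

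Histones package DNA into nucleosomes, each with a core of H2A, H2B, H3 and H4, and linker H1 proteins bind between nucleosomes. Most Hist genes are replication-dependent: their transcription rises with DNA synthesis in S phase, they lack introns, and their mRNA ends not in a poly(A) tail but just after a short stem-loop that the protein Slbp binds. Variant genes such as H3f3a and H3f3b (both encode H3.3), H2afz and H2afv (H2A.Z proteins) and H2afy (macroH2A) are polyadenylated and are used outside S phase too. Some Hist genes, among them Hist1h1c and Hist2h2be, are also known to give polyadenylated transcripts in cells that do not divide.

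The stem-loop was read from the annotated transcripts, since mRNA that ends just after it lacks the poly(A) tail on which QuantSeq primes. Its part in the QuantSeq levels was not tested. A match to the letters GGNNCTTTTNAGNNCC, in which N is any base, was found in the annotated 3' UTR of 44 of 67 Hist genes with a protein-coding transcript, and its first base lay 22 to 59 bases after the stop codon (median 32). Of the 23 without a match, 16 have fewer than 40 bases of 3' UTR annotated, so the search could not reach that far. In 22 of the 44 genes fewer than 100 annotated bases follow the match, and in 16 a polyadenylation signal, AATAAA or its variant with T as the second letter, follows it. The most frequent form was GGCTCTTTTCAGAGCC, in 26 genes, followed by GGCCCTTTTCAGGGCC in 7 genes and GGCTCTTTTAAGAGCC in 6. The sites of 6 genes are shown: 4 that the results turn on (Hist1h1c, Hist1h1e, Hist1h2bk and Hist3h2a, an H2A gene among the 5 Hist genes of highest mean QuantSeq level), Hist1h4i with a T in its loop and the variant gene H2afx. They are written in GRCm38.p6, 5′ to 3′ on the strand of the gene, with the stem-loop in capitals.
Hist1h1c, chr13:23739507-23739532: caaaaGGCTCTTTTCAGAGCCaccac
Hist1h1e, chr13:23621777-23621802: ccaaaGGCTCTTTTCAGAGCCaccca
Hist1h2bk, chr13:22036295-22036320: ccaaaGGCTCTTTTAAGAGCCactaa
Hist1h4i, chr13:22040961-22040986: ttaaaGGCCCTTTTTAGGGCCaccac
Hist3h2a, chr11:58955167-58955192: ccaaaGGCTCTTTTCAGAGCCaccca
H2afx, chr9:44335235-44335260: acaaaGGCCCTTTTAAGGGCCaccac
H2afx was the variant gene with a match, and 822 annotated bases with a polyadenylation signal follow it. The other 6 variant and linker genes had none.

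The 2 Hist genes with the highest mean QuantSeq level, Hist1h2ao and Hist1h2ap, shared a feature of sequence that was looked for after their values were seen. Both carry 12 adenines in a row directly before the stem-loop, where the other 42 genes with a match carry 0 to 7.
Hist1h2ao, chr13:21810886-21810913, plus strand: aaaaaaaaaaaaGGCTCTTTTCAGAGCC
Hist1h2ap, chr13:21833029-21833056, minus strand: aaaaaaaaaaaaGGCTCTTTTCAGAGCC
Of 67 Hist genes read, 4 hold a run of 10 or more adenines anywhere in the annotated transcript. In the other two of these, Hist1h2ac and Hist1h2be, the run lies 1187 and 1045 bases before the end of the transcript, and their mean QuantSeq levels were 19.6 and 4.44 CPM (counts scaled to 1000000 in all), against 270.3 CPM for Hist1h2ao and 129.6 CPM for Hist1h2ap. In RNA-seq, mean levels of Hist1h2ao and Hist1h2ap over the 8 libraries were 41.8 and 43.5 CPM, and those of Hist1h2ac and Hist1h2be were 38.2 and 25.5 CPM. Other H2A copies stood close to these, such as Hist1h2ad at 41.7 CPM and Hist1h2ag at 43.0 CPM. Copies this alike in sequence may share RNA-seq reads, so these values need not be the levels of single copies. The part of the adenine run in the QuantSeq counts was not tested.

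Promoters were compared because Hist genes of all classes moved together below. RefSeq promoter windows of 300 bases (GRCm38.p6, 250 before and 50 after the start) matched 67 of the 77 members, 62 of them Hist genes. The CCAAT box (letters CCAAT, either strand) was present in 53 of 62 Hist windows (85.5%), and in 37.4% of all 32851 windows. It was found in all 6 H1, 18 H2A, 16 H2B and 10 H3 windows read but in 3 of 12 H4 windows. The letters TATAAA were present in 35 of 62 Hist windows (56.5%) and 13.6% of all windows. The octamer ATTTGCAT, a motif of POU domain factors, was present in 7 of 18 H2A and 6 of 16 H2B windows, in none of the H1, H3 or H4 windows and in 1.7% of all windows. No motif contains another, though their ends can overlap, and both strands were read for each. Windows of neighbouring genes on opposite strands can overlap, so the same site can be counted for both genes. The 150 bases before the RefSeq start are shown for the 2 linker genes and the H2A gene on which the QuantSeq results turn. The CCAAT box, on either strand, and TATAAA are in capitals. In GENCODE M21 Hist1h2ao starts further on, at 21810465, so the bases directly before that start are not shown. A match is a description of letters and shows no bound factor.
Hist1h1c, chr13:23738657-23738806, plus strand: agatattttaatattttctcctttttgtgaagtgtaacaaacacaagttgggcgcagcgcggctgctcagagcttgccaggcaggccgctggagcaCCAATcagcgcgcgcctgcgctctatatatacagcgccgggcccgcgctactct
Hist1h1e, chr13:23622559-23622708, minus strand: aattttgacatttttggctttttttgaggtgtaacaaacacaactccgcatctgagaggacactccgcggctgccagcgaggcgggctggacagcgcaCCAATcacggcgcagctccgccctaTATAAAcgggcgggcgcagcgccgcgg
Hist1h2ao, chr13:21810217-21810366, plus strand: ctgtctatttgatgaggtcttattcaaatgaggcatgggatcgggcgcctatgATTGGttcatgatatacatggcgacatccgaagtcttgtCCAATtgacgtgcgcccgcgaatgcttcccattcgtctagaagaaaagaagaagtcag

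QuantSeq libraries held 1.83 to 4.44 M counts and RNA-seq libraries 36.1 to 107.4 M transcript counts (M stands for 1000000), of which the transcripts kept here, 1 per gene, held 12.6 to 35.6 M. A count of 0 allows up to 3 counts, which is 0.653 to 1.62 CPM in QuantSeq and 0.0849 to 0.233 CPM in RNA-seq, for counting error only. Genes that mark CD4 T cells were detected in every group, 8 of 8. QuantSeq TFH2 CXCR5hi libraries carried erythroid markers at a summed 1183 to 1619 CPM and myeloid markers at 706.5 to 1387 CPM, where TH2 libraries carried 0 to 39.5 CPM and 0 to 7.16 CPM. In TH2 libraries the erythroid markers Alas2, Klf1 and Epor and 6 of 10 myeloid markers were at 0. Bcl6 was at 21 and 54 counts in the Bcl6KO libraries and at 1 to 39 in TH2 libraries, and a 3' tag need not lie in the deleted part. Il4 was at 0 and 3 counts in Il4KO and at 0, 0, 40 and 0 in TH2. The 4 QuantSeq TH2 libraries fell into pairs: libraries 1 and 2 held Xist at 338 and 382 CPM, libraries 3 and 4 held the Y-linked Ddx3y at 100.2 and 28.6 CPM, and they also differed in the histone genes, as given below.

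In RNA-seq, histone genes stood far higher in TH2 cells than in naive cells. The Hist genes summed to 4167 and 4673 CPM in the TH2 libraries, 702 and 761 CPM in the naive libraries and 221 and 217 CPM in the TFH CXCR5hi libraries, so the 3 groups did not overlap. Of 69 members with an RNA-seq identifier, 68 passed the filter on low counts. Of these, 67 were higher and 0 lower in TH2 cells than in naive cells, beside 33.9% of all 17013 genes called higher and 65.8% called in either direction. The count held 61 of 62 Hist genes, with a median log2 difference of 3.10, where that of all genes was 0. Near-identical copies may share reads, as given below, so these 61 calls need not be independent of one another. The Hist gene that did not pass was Hist2h4, an H4 gene of chromosome 3 (3.28 and 2.86 CPM in naive, 4.10 and 3.44 in TH2 cells, adjusted p = 0.291).

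**Figure D1:**
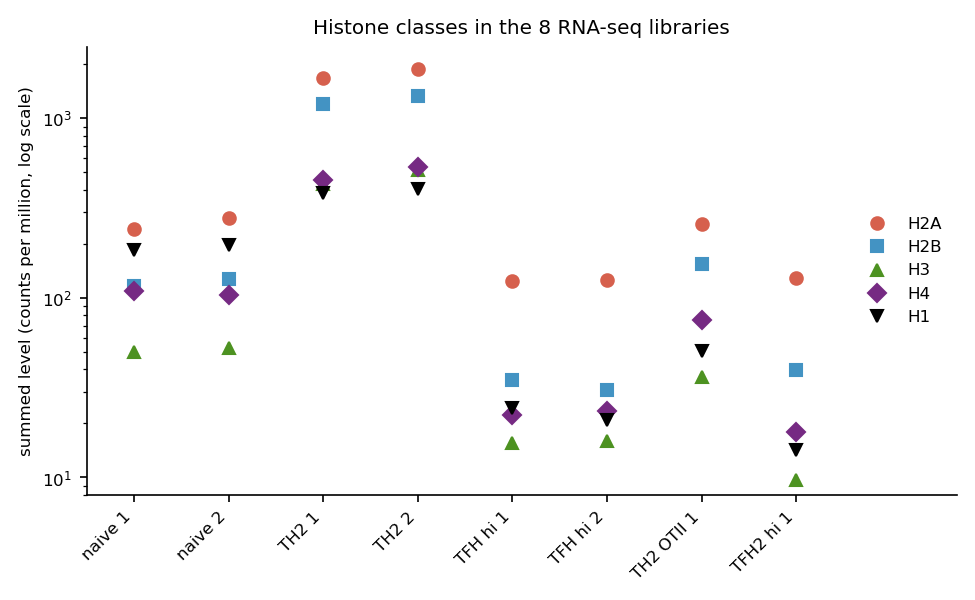
Summed level of the Hist genes of each class (y axis, CPM, log scale) in each of the 8 RNA-seq libraries (x axis). Each class is highest in the 2 TH2 libraries and lowest in the TFH and TFH2 libraries, and the single TH2 OTII library lies well below the other TH2 libraries.

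The core histone classes rose together in TH2 cells. The 20 H2A genes tested summed to 241 and 279 CPM in naive and 1684 and 1893 CPM in TH2 cells, and all 20 were called higher (median log2 3.15). Hist1h2ap, an H2A gene, measured 12.7 and 16.4 CPM in naive and 133 and 145 CPM in TH2 cells, 9.50-fold higher (log2 3.25 ± 0.11 SE, adjusted p = 6.9e-10). The neighbouring Hist1h2ao measured 12.3 and 15.9 CPM in naive and 126 and 139 CPM in TH2 cells. Hist1h2ad and Hist1h2ag, also among the 5 Hist genes of highest mean level, differed by 3.25 and 3.29 on the log2 scale. The copies are also nearly alike in sequence: the coding sequences of 15 H2A genes of the same length agree at a median of 96.7% of bases, those of 17 H2B genes at 97.4%, of 12 H3 genes at 97.2% and of 13 H4 genes at 93.9%. Reads shared between copies cannot be assigned with certainty, so the level of a single copy is uncertain. How such reads were counted is not stated, and if they were counted for each copy the class sums hold them more than once. The counts of called Hist genes and the class medians, in all RNA-seq comparisons, would then rest in part on the same reads. The H2B genes Hist1h2bq and Hist1h2br, for example, held 2692 and 2707 counts in TH2 library 1 and 80 and 80 in TFH library 1.

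H2B genes had the largest median difference of the core classes, 3.57 over 16 genes, all called higher. Hist1h2bj, an H2B gene, led them with 5.47 and 5.52 CPM in naive and 83.1 and 94.2 CPM in TH2 cells (16.1-fold, log2 4.01 ± 0.11 SE, adjusted p = 9.13e-11). The lowest H2B difference was that of Hist2h2be, at 7.36 and 6.51 CPM in naive and 19.0 and 17.1 CPM in TH2 cells (log2 1.38 ± 0.14). All 9 H3 genes tested were higher, with a median of 3.10 and the largest difference, 3.64, in Hist1h3c. Of 12 H4 genes tested 11 were higher, with a median of 2.15, lower than in the other core classes. The 51 Hist genes of chromosome 13 had a median of 3.18, the 8 of chromosome 3 a median of 1.82 and the 3 of chromosome 11 a median of 1.83. Hist3h2a, on chromosome 11, measured 17.4 and 19.1 CPM in naive, 53.9 and 53.0 CPM in TH2 and 7.77 and 6.74 CPM in TFH cells. The 21 genes tested with a stem-loop within 100 bases of the annotated end had a median of 3.23 (range 1.65 to 4.01), and the 12 with a polyadenylation signal after the stem-loop a median of 2.08 (range 0.29 to 3.12). The difference between these sets was not tested.

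The linker genes differed most among themselves. Hist1h1b rose from 0.32 and 0.40 CPM in naive to 28.1 and 30.2 CPM in TH2 cells, 79.7-fold (log2 6.32 ± 0.27 SE, adjusted p = 4.18e-09), the largest difference of any member in this comparison. Hist1h1a rose 10.2-fold and Hist1h1d 3.00-fold. Hist1h1c was already at 145 and 149 CPM in naive cells, the highest mean level of any Hist gene in that group also per kilobase of transcript (94.2 CPM per kb), and reached 246 and 253 CPM in TH2 cells, 1.70-fold higher (log2 0.76 ± 0.07, adjusted p = 2e-06). Hist1h1e moved from 21.3 and 26.2 to 42.6 and 46.5 CPM, 1.88-fold.

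**Figure D2:**
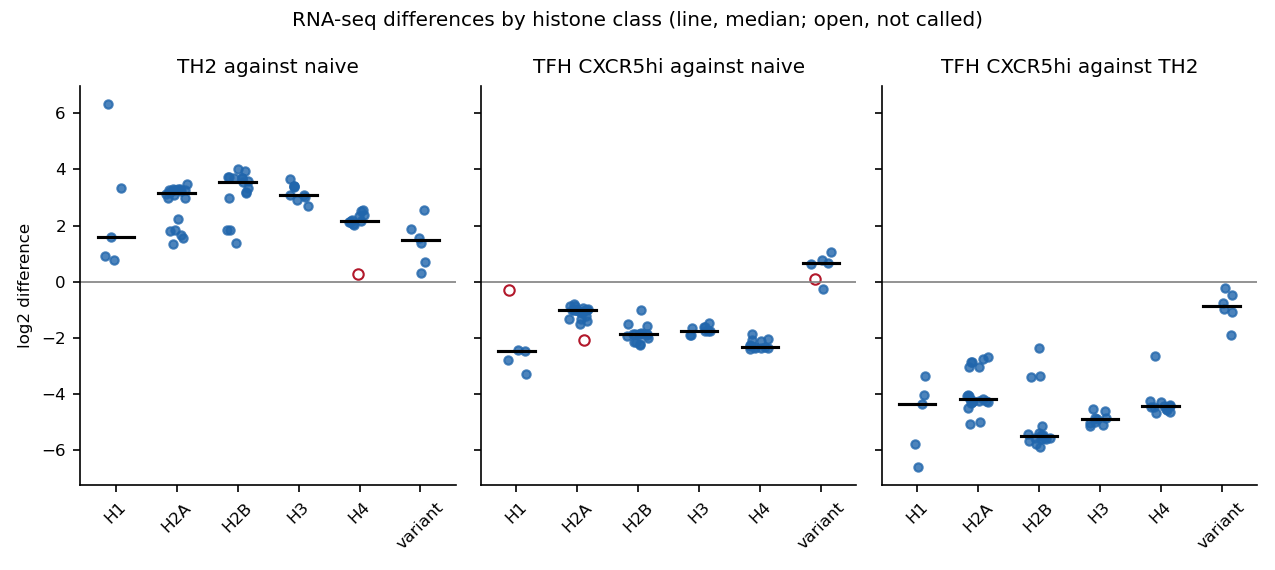
Difference of each tested member on the log2 scale (y axis) by histone class (x axis) in the 3 RNA-seq comparisons, with 1 point per gene, a line at the median and open points for genes that were not called. The Hist classes lie above 0 in TH2 against naive cells and below 0 in TFH against naive and TFH against TH2 cells, while variant genes lie nearer 0.

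Against naive cells, TFH CXCR5hi cells had lower Hist genes. Of 68 members tested, 61 were lower and 4 higher, beside 27.6% of all genes called lower and 29.6% called higher. The lower calls held 60 of 62 Hist genes and H2afy, with a median log2 difference over the Hist genes of -1.84 where that of all genes was 0. By class the medians were -1.02 for H2A, -1.87 for H2B, -1.74 for H3, -2.32 for H4 and -2.45 for H1. Hist1h1c fell from 145 and 149 to 15.8 and 14.4 CPM, 9.71-fold lower (log2 -3.28 ± 0.08 SE, adjusted p = 8.3e-11). Hist1h1d was 6.81-fold and Hist1h1e 5.45-fold lower. Hist1h1b (0.44 and 0.10 CPM in TFH cells) did not pass, at -0.28 ± 0.46 with adjusted p = 0.656, nor did Hist1h2aa, which held 9 and 4 counts in naive and 1 and 1 in TFH cells. The 2 comparisons with naive cells share the naive libraries, so they are not independent.

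Against TH2 cells, the 68 members tested were all lower in TFH CXCR5hi cells, beside 31% of all genes called lower. The median over the 62 Hist genes was -4.48, and that of all genes was -0.01. The class medians were -5.50 for H2B, -4.89 for H3, -4.43 for H4, -4.36 for H1 and -4.18 for H2A. Hist1h1b was 96.4-fold lower (log2 -6.59 ± 0.29 SE, adjusted p = 5.83e-09), Hist1h2bj 59.0-fold and Hist1h2ap 19.3-fold. The smallest Hist difference was that of Hist2h2be, 5.17-fold lower (log2 -2.37 ± 0.15), the H2B gene with 3.83 and 3.09 CPM in TFH cells. The RNA-seq naive and TH2 libraries held Xist at 577 to 1246 CPM and Ddx3y at no more than 0.0643 CPM, and the TFH libraries held Xist at 0.331 and 0.309 CPM and Ddx3y at 82.5 and 85.2 CPM, so sex, genotype and cell type cannot be told apart in the 2 comparisons with TFH cells.

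The variant genes moved less than the Hist genes. In TFH against naive cells, where the Hist genes were lower, 4 of 6 variant genes were called higher, beside 29.6% of all genes. All 6 in the RNA-seq table were higher in TH2 than in naive cells, beside 33.9% of all genes. Their median log2 difference there was 1.47. H2afx, whose product is phosphorylated beside DNA breaks, stood at 28.4 and 33.3 CPM in naive, 158 and 204 CPM in TH2 and 50.3 and 48.0 CPM in TFH cells, 5.85-fold higher in TH2 than in naive cells (log2 2.55 ± 0.13 SE, adjusted p = 1.08e-07). H2afz measured 135 and 137, 513 and 485, and 240 and 228 CPM in naive, TH2 and TFH cells, and H2afv 35.7 and 35.5, 89.6 and 96.7, and 54.8 and 55.0 CPM. In both H2A.Z genes the order was naive, TFH, TH2 with no overlap, and each of the 3 comparisons was called.

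H3f3b, an H3.3 gene, measured 409 and 396 CPM in naive, 1226 and 1128 CPM in TH2 and 856 and 838 CPM in TFH cells. It was 2.10-fold higher in TFH than in naive cells (log2 1.07 ± 0.08 SE, adjusted p = 7.11e-07), and per kilobase of transcript it was at 160, 468 and 337 CPM per kb in naive, TH2 and TFH cells, the highest mean of the members in each group, though in TH2 cells its libraries overlapped with those of H2afz (467 CPM per kb). H3f3a encodes the same protein and differed less: 253 and 252, 341 and 288, and 272 and 263 CPM, with log2 differences of 0.32 ± 0.09 (TH2 against naive, adjusted p = 0.0084), 0.08 ± 0.09 (TFH against naive, 0.454) and -0.23 ± 0.09 (TFH against TH2, 0.04). H2afy measured 269 and 264 CPM in naive, 430 and 438 CPM in TH2 and 227 and 215 CPM in TFH cells, and was the variant gene called lower in TFH than in naive cells (log2 -0.27 ± 0.07, adjusted p = 0.00822). These small differences did not hold in every alternative. With summed transcripts H3f3a was called in TFH against naive cells (0.24, adjusted p = 0.0405) and was not in TFH against TH2 cells (-0.08, adjusted p = 0.446). H3f3a in TFH against TH2 cells was also not called with only the groups compared (0.079), without TH2 library 1 (0.0597) or without TFH library 1 (0.104) or 2 (0.203), each value an adjusted p. H3f3a in TH2 against naive cells was not called without naive library 1 (0.0624) or 2 (0.0641), nor was H2afy in TFH against naive cells without naive library 1 (0.0798) or 2 (0.0552) or TFH library 2 (0.0563), again as adjusted p.

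**Figure D3:**
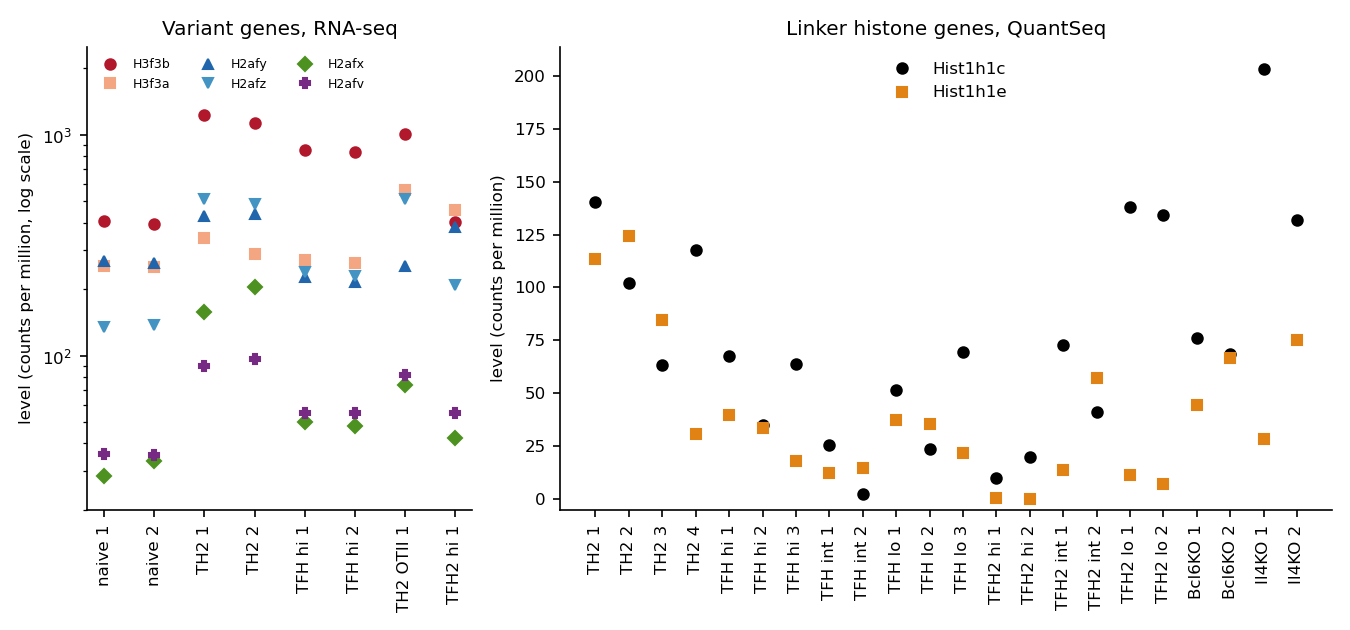
Left, level of 6 variant genes (y axis, CPM, log scale) in each RNA-seq library, and right, level of the linker genes Hist1h1c and Hist1h1e (y axis, CPM) in each QuantSeq library. Variant genes are highest in the TH2 libraries among the replicated groups, H2afv and H2afx being the lowest of the 6 throughout, and Hist1h1e is at 0.406 and 0 CPM in the TFH2 CXCR5hi libraries.

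The listed genes of histone mRNA synthesis, processing and decay, Npat, Hinfp and Upf1 among them, did not move as a body. Of 16 measured, such as Slbp and the exonuclease Eri1, 8 were higher and 3 lower in TH2 than in naive cells (median 0.32). In TFH against naive cells 5 were higher and 4 lower (median -0.01), and in TFH against TH2 cells 2 and 8 (median -0.25). Among all genes, 33.9% were called higher and 31.9% lower in TH2 against naive cells. The shares were 29.6% and 27.6% in TFH against naive and 30.8% and 31% in TFH against TH2 cells. Counts near these shares, here and for the lists below, do not set a list apart from all genes. Slbp stood at 33.3 and 32.4 CPM in naive, 121 and 104 CPM in TH2 and 57.0 and 55.1 CPM in TFH cells, 0.77 ± 0.09 SE higher on the log2 scale in TFH than in naive cells (adjusted p = 1.47e-05), the comparison in which 60 Hist genes were lower. Lsm11, part of the U7 particle that cuts the histone precursor, was lower there by log2 -1.54 ± 0.12 (26.5 and 24.5 against 9.09 and 8.34 CPM), and Eri1, which trims the stem-loop end, by -0.70 ± 0.08. Mif4gd, a partner of Slbp, and Ncbp2, a subunit of the cap-binding complex, rose in TH2 cells by 1.10 ± 0.07 and 1.17 ± 0.11.

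Histone chaperones carry histones to DNA and exchange variants. Of 20, 12 were higher and 6 lower in TH2 than in naive cells (median 0.50). The counts were 8 and 4 in TFH against naive (median 0.12), and 7 and 12 in TFH against TH2 cells (median -0.39). The shares of all genes called are those given for the list above. Chaf1a, the large subunit of the replication-coupled assembly factor, measured 1.09 and 0.93 CPM in naive, 58.5 and 69.7 CPM in TH2 and 6.63 and 6.23 CPM in TFH cells, log2 5.98 ± 0.15 SE higher in TH2 and 2.67 ± 0.17 higher in TFH than in naive cells. Asf1b, a chaperone of H3 and H4, was log2 4.22 ± 0.10 higher in TH2 than in naive cells and Chaf1b 2.06 ± 0.11. Srcap, the ATPase that deposits H2A.Z, was lower in TFH than in naive cells by -0.74 ± 0.09, and Nap1l1, an H2A and H2B chaperone, by -0.50 ± 0.08.

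Genes of S phase and of G2 and mitosis were measured beside the histones. The S phase list summed to 819 and 789 CPM in naive, 3318 and 3351 CPM in TH2 and 1100 and 1086 CPM in TFH cells, and the list of G2 and mitosis to 64.1 and 57.2, 4482 and 4120, and 139 and 132 CPM. In TH2 against naive cells 24 of 25 S phase genes and 18 of 18 G2 and mitosis genes were higher (medians 2.45 and 6.94). Of all genes, 33.9% were called higher there. In TFH against naive cells 15 S phase genes were higher and 2 lower (median 0.57). Of the G2 and mitosis genes 13 were higher and 1 lower (median 1). Among all genes, 29.6% were called higher and 27.6% lower in that comparison. Mcm6, of the replicative helicase, was log2 1.71 ± 0.07 SE higher in TFH than in naive cells, Rrm2, of ribonucleotide reductase, 1.74 ± 0.12 and Mki67, a proliferation marker, 1.99 ± 0.11. In that comparison the sums of these lists were higher and the Hist sum was lower in both TFH libraries than in both naive libraries. In bulk samples fewer cells with a transcript and less transcript per cell cannot be told apart.

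**Figure D4:**
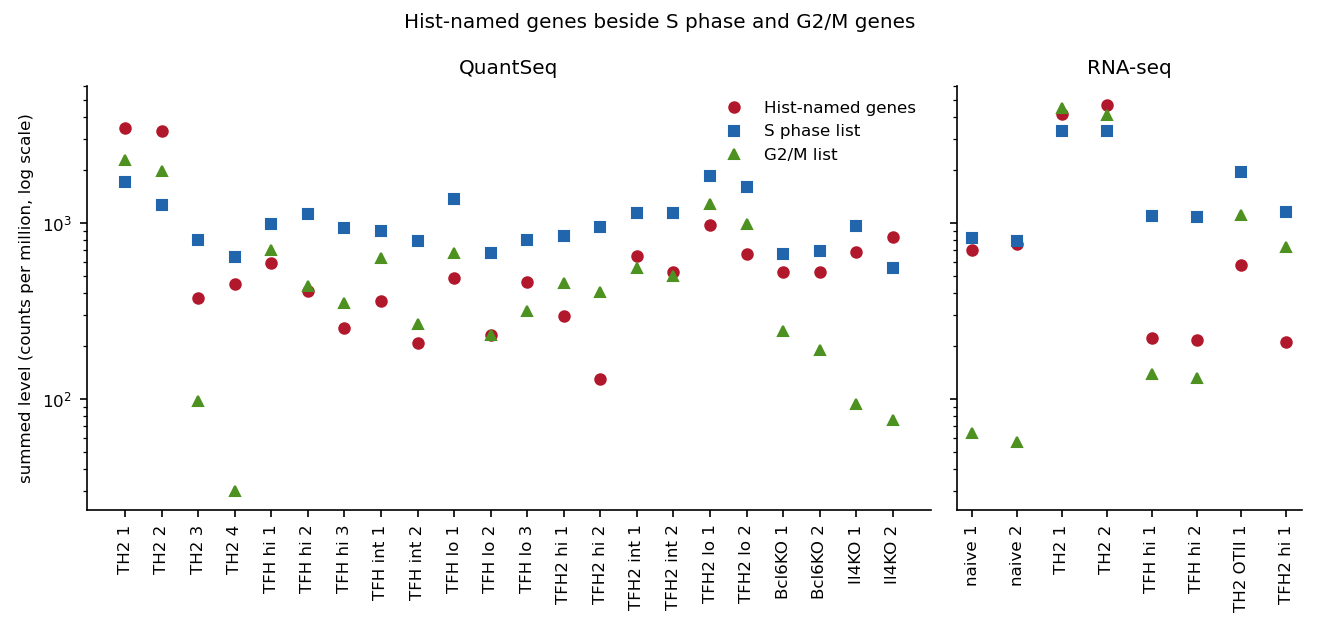
Summed level (y axis, CPM, log scale) of the Hist genes, the S phase list and the list of G2 and mitosis genes in each QuantSeq library (left) and RNA-seq library (right). In RNA-seq the naive libraries lie above the TFH libraries in Hist genes and below them in both lists, and in QuantSeq TH2 libraries 1 and 2 lie above the other libraries in Hist genes and G2 and mitosis genes.

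The 2 single RNA-seq libraries have no replicate, so their values are described without a test. In the library of TH2 cells of IL-4BacTg x OTII Tg mice the Hist genes summed to 577 CPM, below both naive libraries, although 25 of 63 Hist genes were above both of them, and Hist1h1c was at 33.6 CPM where naive libraries had 145 and 149 CPM. There 62 of 63 Hist genes were below both IL-4BacTg TH2 libraries, which stood over it by a median of 7.70-fold. Hist1h2ap was at 19.1 CPM there. Its S phase list summed to 1947 CPM and its G2 and mitosis list to 1111 CPM, above both naive libraries. It also carried B cell markers at 1866 CPM, myeloid markers at 220 CPM and erythroid markers at 208 CPM, where the IL-4BacTg TH2 libraries carried 176 to 188, 19.4 to 20.2 and 43.0 to 46.6 CPM, and the part of these in its histone levels was not tested. The TFH2 CXCR5hi library summed to 210.5 CPM, near the 221 and 217 CPM of the TFH libraries, with 33 Hist genes below both of them and 24 above both. Its H3f3b, at 403 CPM, was below the 856 and 838 CPM of the TFH libraries, and its H2afy, at 384 CPM, above their 227 and 215 CPM. Hist1h2al was at 0 in both single libraries and at 33.7 and 41.4 CPM in the TH2 libraries, and 151 of 27409 transcripts with 200 or more counts in all of the 6 replicated libraries were at 0 in both. Whether the single libraries were counted like the others was not tested.

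In QuantSeq the Hist sum set 2 TH2 libraries apart. It was 3485 and 3321 CPM in TH2 libraries 1 and 2 and 378 and 450.5 CPM in libraries 3 and 4. The other 18 libraries lay between 130.7 and 977 CPM, so no other library reached the first pair, while the second pair lay within their range. Hist1h2ao and Hist1h2ap made up 67.5% and 66.5% of the Hist sum in libraries 1 and 2 and 15.5% and 37.4% in libraries 3 and 4. In the RNA-seq TH2 libraries they made up 6.21% and 6.07%. RNA-seq reads shared between near-identical copies may have been counted for each copy, so the shares in QuantSeq and RNA-seq may not be measured alike. Without Hist1h2ao and Hist1h2ap the Hist sum of QuantSeq TH2 libraries 1 and 2 was 1132 and 1112 CPM, still above the other libraries, which reached 622 CPM. The list of G2 and mitosis genes summed to 2277 and 1979 CPM in libraries 1 and 2 and 97.8 and 30.3 CPM in libraries 3 and 4, and the S phase list to 1724 and 1270, and 803 and 645 CPM. Calls of histone genes against TH2 cells were therefore also made with each pair left out, and values given below without such a remark are those with all 4 libraries. The pairs were set apart by the histone levels that these calls test. A call with a pair left out therefore describes the remaining pair and is no separate evidence of a difference.

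**Figure D5:**
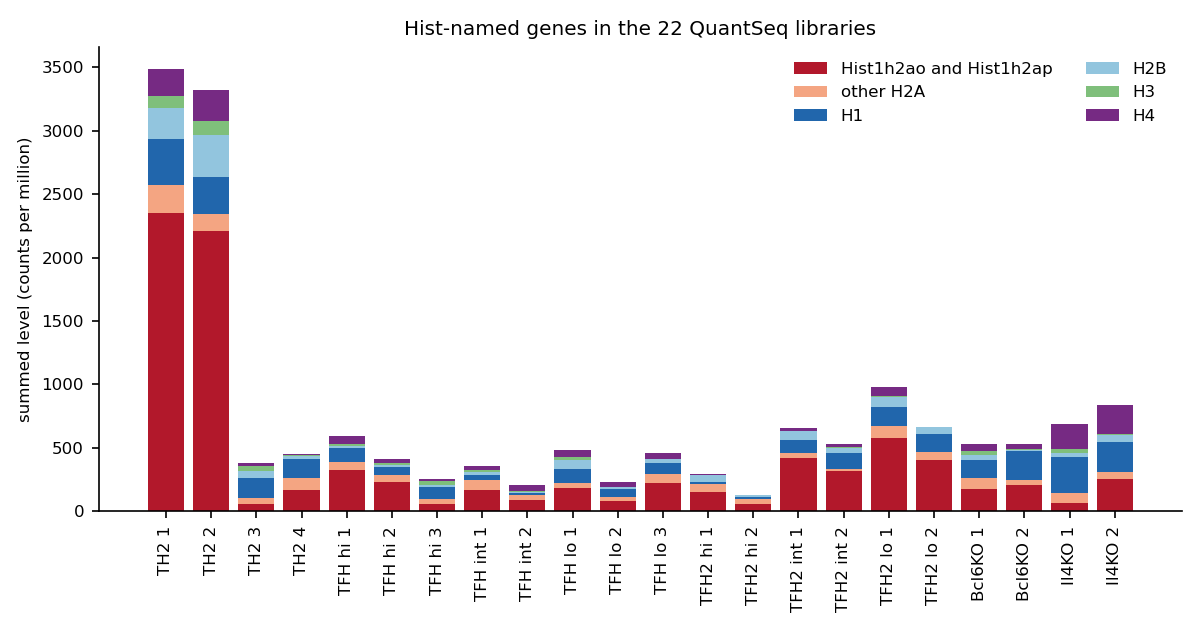
Stacked bars of the summed level of the Hist genes by class (y axis, CPM) in each of the 22 QuantSeq libraries (x axis), with Hist1h2ao and Hist1h2ap apart from the other H2A genes. TH2 libraries 1 and 2 reach 3485 and 3321 CPM, most of it from these 2 genes, and TH2 libraries 3 and 4 lie among the other groups.

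QuantSeq levels were sparse and uneven. Of the 77 members, 54 passed the filter on low counts, 47 of them Hist genes and 7 variant or linker genes, and those that passed through 1 high group had to differ. Per library, 7 to 40 Hist genes had 10 or more counts, and the Hist genes together held 368 to 9770 counts. Replicate libraries differed by 35.1 to 56.0 times the sampling variance of counts, and Hist1h2bk, with 111 and 116 counts in TH2 libraries 1 and 2 and 0 in libraries 3 and 4, is an example. On simulated counts with these means, the test of TFH CXCR5hi against TH2 cells found 0% of genes changed 2-fold and 7.5% of genes changed 4-fold.

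In TFH CXCR5hi against TH2 cells, 0 of 54 members were called by edgeR, beside 3.51% of all 14380 genes, 2.05% called higher and 1.46% called lower. At an unadjusted p under 0.05 there were 13, 3 higher and 10 lower, and DESeq2 called 2. The share of all genes is not given for unadjusted p, for DESeq2 or with TH2 libraries left out. Such counts, here and below, therefore cannot be read as an excess of histone genes. Hist1h2ao measured 1576, 1530, 45.3 and 119 CPM in TH2 libraries and 171, 145 and 37.0 CPM in TFH CXCR5hi libraries, so the groups overlapped, with a log2 difference of -2.80 ± 1.11 SE and adjusted p = 0.274. DESeq2 gave -2.82 ± 0.93 with adjusted p = 0.0289. Without TH2 libraries 3 and 4 it was -3.77 ± 0.78 (adjusted p = 0.0174), and Hist1h2ap, at 777, 679, 13.3 and 49.2 CPM in TH2 and 155, 83.8 and 17.7 CPM in TFH CXCR5hi cells, was -3.14 ± 0.54 (adjusted p = 1.54e-05). Without libraries 1 and 2 neither was called and H2afv was, 1.41 ± 0.39 higher in TFH CXCR5hi cells (adjusted p = 0.0117). H2afv measured 413, 359, 157 and 194 CPM in TH2 and 629, 358 and 406 CPM in TFH CXCR5hi libraries, 0.73 ± 0.30 with all 4 (adjusted p = 0.235). TFH CXCR5hi libraries carried myeloid markers at 77.8 to 221.5 CPM, erythroid markers at 86.8 to 141.7 CPM and B cell markers at 250.7 to 297.1 CPM, above the TH2 libraries, and held Xist at 216 to 484 CPM with Ddx3y at 0. The part of these in the histone levels was not tested.

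The members with the largest fitted differences that were not called had no count in the TFH CXCR5hi libraries. Hist1h2be held 135, 73, 24 and 0 counts in the TH2 libraries and Hist1h2bk 111, 116, 0 and 0. With 3 counts put in each empty TFH CXCR5hi library, their TH2 means were at least 23.0-fold and 22.2-fold higher, with adjusted p = 0.224 and 0.188 in the fit. Both bounds rest mainly on TH2 libraries 1 and 2. These bounds, and those given below as at least so many fold, allow for counting error only, not for the spread between replicate libraries.

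In TFH2 CXCR5hi against TH2 cells 2 members were called, both linker genes and both lower, beside 1.24% of all genes called lower and 2.93% called in either direction. Hist1h1e held 1 and 0 counts in the TFH2 CXCR5hi libraries and 290, 365, 248 and 57 counts in the TH2 libraries (adjusted p = 0.000117). Hist1h1c measured 10.1 and 19.9 CPM in the TFH2 CXCR5hi and 140.5, 102, 63.4 and 118 CPM in the TH2 libraries, 7.03-fold lower (log2 -2.81 ± 0.76 SE, adjusted p = 0.0159). Neither gene overlapped between the groups. Hist1h1e was called also without TH2 libraries 1 and 2 (adjusted p = 0.00264), where H2afv was called higher (1.36 ± 0.41, adjusted p = 0.0343), and without libraries 3 and 4 (4.18e-05). Hist1h1c was called without libraries 3 and 4 (-3.05 ± 0.80, adjusted p = 0.00847) but not without libraries 1 and 2 (-2.56, adjusted p = 0.0785), nor without TFH2 CXCR5hi library 1 (-2.43, adjusted p = 0.317) or 2 (-3.39, adjusted p = 0.0601).

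At an unadjusted p under 0.05 there were 10 members, all lower, and DESeq2 called 5. Hist1h2ao was at 106 and 43.3 CPM and Hist1h2ap at 46.7 and 17.4 CPM in the TFH2 CXCR5hi libraries. They differed from TH2 cells by log2 -3.45 ± 1.37 and -3.57 ± 1.49 with all libraries (adjusted p = 0.314 and 0.345), and by -4.43 ± 0.95 and -4.56 ± 0.68 without TH2 libraries 3 and 4 (adjusted p = 0.0234 and 3.35e-07). Hist1h4m, an H4 gene, and Hist1h1d were at 0 in both TFH2 CXCR5hi libraries, so that TH2 means were at least 24.4-fold and 21.1-fold higher, with adjusted p = 0.196 and 0.235. In the TH2 libraries Hist1h4m held 115, 195, 0 and 0 counts and Hist1h1d 161, 74, 23 and 1, so both bounds rest on libraries 1 and 2. The erythroid and myeloid markers given above moved with this comparison, as did B cell markers, at 691.9 to 1085 CPM in TFH2 CXCR5hi and 60.5 to 168.2 CPM in TH2 libraries, with 3 of 8 tested called higher. Their part in it was not tested. In the single RNA-seq library of TFH2 CXCR5hi cells, which carried erythroid markers at 17.6, myeloid markers at 28.2 and B cell markers at 836.4 CPM (TH2 libraries 176 to 188 CPM), Hist1h1c was at 12.1 and Hist1h1e at 1.24 CPM, below every TH2 and naive library.

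The CXCR5 gates were not tested against one another within TFH2 cells alone, so their levels are described. Hist1h1c measured 10.1 and 19.9 CPM in the hi, 73.0 and 41.4 CPM in the int and 138 and 134 CPM in the lo gate of TFH2 cells, with no overlap between gates. The hi libraries are the same in which it was called lower than in TH2 cells, so this order is no separate evidence. In TFH cells it measured 67.7, 35.2 and 63.7 CPM (hi), 25.7 and 2.47 CPM (int) and 51.6, 23.6 and 69.7 CPM (lo), where hi and lo overlapped. Hist1h1e had no such order in TFH2 cells, at 0.406 and 0 CPM (hi), 14.0 and 57.0 CPM (int) and 11.7 and 7.11 CPM (lo). Over both cell types the hi gate was lower than the lo gate by log2 -1.49 ± 0.50 SE for Hist1h1c and -2.69 ± 0.89 for Hist1h1e, with adjusted p = 0.29 and 0.284. The difference between the gate effects in TFH2 and TFH cells was -3.38 ± 1.00 for Hist1h1c (unadjusted p = 0.000991, adjusted p = 0.908).

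Across gates 0 of 54 members were called, beside 0.403% of all genes, with 5 at an unadjusted p under 0.05 and 0 by DESeq2. For the difference between gate effects 0 were called by edgeR, beside 0.0139% of all genes, and 7 were under that unadjusted p. The Hist sum was 295 and 130.7 CPM in TFH2 CXCR5hi, 653 and 528 CPM in int and 977 and 665 CPM in lo libraries. In TFH cells it was 596, 409 and 253 CPM (hi), 361 and 209 CPM (int) and 485.5, 230.1 and 461 CPM (lo). The S phase list of TFH2 cells summed to 846 and 955 CPM in hi and 1855 and 1605 CPM in lo libraries. In TFH cells it summed to 987, 1124 and 943 CPM (hi) and 1369, 674 and 800 CPM (lo), which overlapped. Over both cell types E2f2, a regulator of S phase genes, was called lower in the hi than in the lo gate (log2 -1.46 ± 0.33, adjusted p = 0.00699). Hist1h2bk and Hist1h2bj, H2B genes, had the largest fitted gate differences, in opposite directions and not called (adjusted p = 0.529 and 0.586). Hist1h2bk was at 0 in 5 of 5 CXCR5hi libraries. The erythroid list summed to 1183 to 1619 CPM in hi and 416 to 691 CPM in lo TFH2 libraries, and its part was not tested.

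Between TFH2 and TFH cells, over the mean of the 3 gates, 0 of 54 members were called by edgeR, beside 0.647% of all genes. There were 6 at an unadjusted p under 0.05, 1 higher and 5 lower, and DESeq2 called 1, Hist1h1e (-2.52 ± 0.66 SE, adjusted p = 0.0094), for which edgeR gave -2.46 ± 0.72 and adjusted p = 0.0865. Hist1h1e was at 0.406, 0, 14.0, 57.0, 11.7 and 7.11 CPM in the TFH2 and at 12.2 to 39.6 CPM in the TFH libraries, so the groups overlapped through the 2 TFH2 CXCR5int libraries. The largest fitted differences were those of Hist1h4k and Hist1h3a (adjusted p = 0.247 and 0.292). Hist1h4k was at 0 in 6 of 6 TFH2 and 4 of 8 TFH libraries, and Hist1h3a in 5 of 6 and 3 of 8. H3f3b was lower in TFH2 cells by log2 -0.46 ± 0.17 (adjusted p = 0.293), at 514 to 661 CPM against 565.5 to 1029 CPM. TFH libraries held Xist at 173 to 537 CPM and Ddx3y at 0, and TFH2 libraries held Ddx3y at 48.7 to 98.7 CPM, so sex and genotype cannot be told apart here. Myeloid markers summed to 292 to 1387 CPM in TFH2 and 75.9 to 221.5 CPM in TFH libraries, with 3 of 9 tested called higher, and 2 of 8 B cell and 1 of 6 erythroid markers were called higher too. Their part in these differences was not tested.

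In Bcl6KO and Il4KO cells 0 of 54 members were called against TH2 cells, beside 0.0209% of all genes in Bcl6KO (0.00695% lower) and 0.0695% in Il4KO cells (0.00695% higher and 0.0626% lower). At an unadjusted p under 0.05 there were 1 and 3 members, all lower, and DESeq2 called 1 and 0. The Hist sums were 530 and 528 CPM in Bcl6KO and 688 and 835 CPM in Il4KO libraries, between those of the 2 TH2 pairs. Without TH2 libraries 3 and 4 Hist1h2ap was called lower in both, by log2 -3.74 ± 0.65 in Bcl6KO (62.1 and 49.1 CPM, adjusted p = 0.000188) and -3.55 ± 0.65 in Il4KO cells (29.9 and 97.7 CPM, adjusted p = 0.000198), and without libraries 1 and 2 no member was. The Bcl6KO libraries held Xist at 218 and 220 CPM and the Il4KO libraries Ddx3y at 82.6 and 72.3 CPM, so each matched 1 of the 2 TH2 pairs in these genes. The 4 comparisons with TH2 cells share the TH2 libraries.

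H4 genes were high in both Il4KO libraries. They summed to 196 and 228.5 CPM in Il4KO, 212 and 243 CPM in TH2 libraries 1 and 2 and 1.02 to 68.9 CPM in the other 18 libraries. H1 genes summed to 287 and 237 CPM in Il4KO, of which Hist1h1c gave 203 and 132 CPM. Hist1h2be and Hist1h2br, H2B genes, were at 0 in both Il4KO libraries, and their TH2 means were at least 21.9-fold and 19.7-fold higher (adjusted p = 0.921 and 0.924). In Bcl6KO cells Hist1h2bk and Hist1h2br were at 0, with TH2 means at least 17.4-fold and 16.2-fold higher (adjusted p = 0.848 and 0.86). Hist1h2br held 85, 128, 1 and 0 counts in the TH2 libraries and Hist1h2bk 111, 116, 0 and 0, so these bounds come from TH2 libraries 1 and 2, and in libraries 3 and 4 both genes were at or near 0 as well. The G2 and mitosis list summed to 94.0 and 76.0 CPM in Il4KO and 245 and 191 CPM in Bcl6KO libraries, so that Il4KO libraries stood below all TFH and TFH2 libraries in that list and above all of them but TFH2 CXCR5lo library 1 in the Hist sum.

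None of the 7 variant and linker genes was called in any QuantSeq comparison with all libraries. H3f3b measured 357 to 1029 CPM, H2afv 132 to 629 CPM and H2afy 205 to 464 CPM over the 22 libraries. H3f3b in TFH CXCR5hi cells (664, 775 and 964 CPM) did not overlap with TH2 cells (492, 450, 502 and 615 CPM), a difference of log2 0.64 ± 0.24 SE with adjusted p = 0.145. H2afx was at 128, 67.0, 13.6 and 10.3 CPM in the TH2 libraries, again with libraries 1 and 2 above 3 and 4. H1f0, the replication-independent linker gene, was at 105, 38.8, 34.4 and 37.8 CPM in TH2 and 20.3 and 11.0 CPM in Il4KO libraries (log2 -1.78 ± 0.76, adjusted p = 0.921). H2afz and H3f3a, at 135 to 513 and 252 to 561 CPM in RNA-seq, were at 2.40 to 52.8 and 0 to 34.5 CPM in QuantSeq. Hist3h2a was at 7.43 to 63.4 CPM over the QuantSeq libraries, lower in TH2 libraries 1 and 2 (7.43 and 10.9 CPM) than in every other library.

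The pathway lists gave few calls in QuantSeq. The shares of all genes called are given above for each comparison. None of 15 tested genes of histone mRNA synthesis, processing and decay was called in any QuantSeq comparison. Of 20 chaperones only Anp32e was, in TFH CXCR5hi against TH2 cells (log2 1.14 ± 0.34 SE, adjusted p = 0.0322). Anp32e removes H2A.Z from nucleosomes and measured 406, 439 and 211 CPM in TFH CXCR5hi and 177, 275, 86.6 and 97.2 CPM in TH2 cells. E2f2 was lower than in TH2 cells in both TFH CXCR5hi (-1.49 ± 0.39, adjusted p = 0.011) and TFH2 CXCR5hi cells (-2.21 ± 0.48, adjusted p = 0.000968), and Mcm7, of the replicative helicase, was lower in TFH2 CXCR5hi cells (-3.76 ± 1.08, adjusted p = 0.0388). None of 18 G2 and mitosis genes was called in any QuantSeq comparison.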

How the data were processed

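Histone gene counts were taken from 22 QuantSeq and 8 RNA-seq libraries. The deposited values are whole counts, per gene in QuantSeq and per transcript in RNA-seq. Per the submitters' processing notes, the tools included featureCounts 1.6.0, STAR 2.7.0c and Bowtie 0.12.2, with builds GRCm38.p6, mm10 and mm9. The role of each is not stated. Identifiers were named from GENCODE M21: 93 of 55573 QuantSeq identifiers (0.0062% of counts) had no name, and 82946 of 95883 RNA-seq identifiers had one, the rest holding 14.66% of counts. Unnamed identifiers were left out. In RNA-seq each gene was represented by its most abundant transcript, and 8 members had no identifier there (H1f0, Hist1h2bh, Hist1h2bm, Hist1h3h, Hist1h3i, Hist2h2bb, Hist2h3c1, Hist4h4).

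Each kit was fitted apart with edgeR 4.0.16 in R 4.3.3 (TMM factors, filterByExpr with minimum count 10 and minimum total 15, robust quasi-likelihood, 2-sided). QuantSeq held 14380 genes in 9 groups with 13 residual degrees of freedom and RNA-seq 17013 genes in 5 groups with 3. P values were adjusted by Benjamini-Hochberg over all genes, and genes with adjusted p under 0.05 were called. Levels are CPM, counts per 1000000, after TMM scaling. Where a whole group was at 0, 3 counts were put in each of its libraries and the fold is a bound for counting error only. Alternatives were DESeq2 1.42.0, RLE factors, no filter, only the groups compared, sums of transcripts and leaving out each library. RNA-seq replicates differed by 2.65 to 21.4 times the sampling variance. The script was tested on simulated data: with 200 genes changed, the TH2 against naive test in RNA-seq found 67.5% at 2-fold and 87% at 4-fold. The RefSeq promoters and GENCODE transcripts gave the sequences.

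The members, lists and rules were chosen with earlier results of these data known. Named genes are every called member (in RNA-seq, where nearly all were called, most are given only by counts and ranges of their class), the 7 variant and linker genes, the 5 Hist genes of highest mean level in each kit, the 2 uncalled members with the largest difference in each comparison and up to 3 called genes per list and comparison. Of 17 listed genes of histone mRNA synthesis, processing and decay, 16 matched. The entry for Sympk was misspelled and matched nothing, so Sympk was not looked at. Marker lists held 10 B cell, 10 myeloid, 10 erythroid, 6 CD8 and NK and 8 CD4 T cell genes.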

Additional observations from a re-analysis of the deposited data

Results flagged for a closer look

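H1f0, the replication-independent linker gene, was the histone gene in the QuantSeq TH2 group in which 1 library stood apart from the other 3. It measured 104.9 CPM in library 1, and the other libraries lay between 34.4 and 38.8 CPM, so the gap was 0.939 of the whole range, above Dixon's critical value for 4 samples. In all 12 sets of values were checked this way, and chance alone flags about 1 in 20.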

How the results depend on the processing

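Counts of called histone genes in RNA-seq kept within 1.5 times under every alternative run: 67 for TH2 against naive cells under the other settings and 66 to 67 leaving out each library, 64 to 66 and 62 to 63 for TFH against naive, and 67 to 68 for both in TFH against TH2. In QuantSeq, DESeq2 called 2 members in TFH CXCR5hi against TH2, 5 in TFH2 CXCR5hi against TH2, 1 in TFH2 against TFH and 1 in Bcl6KO against TH2, where edgeR called 0, 2, 0 and 0, and the cause was not tested. In a check added after the data were seen, leaving out TH2 libraries 1 and 2 gave 1 call in TFH CXCR5hi against TH2, and leaving out libraries 3 and 4 gave 2 in that comparison, 4 in TFH2 CXCR5hi, 1 in Bcl6KO and 1 in Il4KO. Leaving out 1 library at a time gave 1 to 2 calls in TFH2 CXCR5hi against TH2 and 0 in the other QuantSeq comparisons. No called result changed direction under the alternatives run. Over alternatives, single-gene results were followed for the variant and linker genes and for members called in the comparison with all libraries, not for other Hist genes such as those that DESeq2 added. Of these, 677 kept their side of the threshold, 2 gained a call and 3 lost it in QuantSeq, and 1788, 1 and 19 did so in RNA-seq, the losses in Hist1h2aj, Hist1h4m, H3f3a and H2afy. No paired analysis was possible because the labels carry no replicate numbers or animals. In QuantSeq 7 to 40 Hist genes per library had 10 or more counts, and replicates differed by 35.1 to 56.0 times the sampling variance, so precision is limited by more than counting error.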
